A study of Arabidopsis thaliana with 12 samples.

Results

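SPX1 to SPX4 are the 4 Arabidopsis genes whose proteins consist of little more than an SPX domain, and they were found by gene identifier (AT5G20150, AT2G26660, AT2G45130 and AT5G15330) among 20017 genes of the deposited expression table, which holds all 4 of them. Root RNA was sequenced from Arabidopsis thaliana seedlings after 7 days on agar plates, which either held 1 mM phosphate (+Pi) or had none added (-Pi). The paper states that a residual amount of phosphate was left in the -Pi medium. Below, without phosphate means that none was added. Both media carried the wild type Col-0 and the mutant crr, which gave 4 groups of 3 libraries, each from pooled seedlings. The crr line is a single T-DNA insertion line of CRR, the gene of a CYBDOM protein, a membrane protein family that joins a cytochrome and a DOMON domain, to which the study ascribes ferric reductase activity. The table gives each gene 1 value per group, the authors' mean log2 CPM (CPM, read counts scaled to the size of the library, on a log2 scale). The single libraries themselves were not analysed, so no mean has a spread, no difference below was tested, and all differences between groups are descriptions of the authors' means.

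The SPX domain binds inositol pyrophosphates, small signalling molecules whose level follows the phosphate status of the cell. When phosphate is ample, SPX proteins loaded with these molecules bind the transcription factor PHR1 and its relatives and keep them from their target promoters. When phosphate is short the complex dissolves, PHR1 binds a motif known as P1BS, and the phosphate starvation response is switched on. SPX1 and SPX2 are nuclear proteins that bind PHR1 and act redundantly, and SPX3 takes part in negative feedback on the response. SPX4 also restrains PHR1.

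All 4 genes lie on the plus strand and have 3 exons. In TAIR10 coordinates SPX1 lies at chr5:6802282-6803655, SPX2 at chr2:11338752-11340950, SPX3 at chr2:18606410-18607853 and SPX4 at chr5:4980374-4982231. The coding sequence is 771 bases long in SPX1, 864 in SPX2, 738 in SPX3 and 1164 in SPX4, so SPX4 has the longest reading frame. In global alignments of the coding sequences, SPX1 and SPX2 were the most alike, with 64.9% identical columns, and SPX3 and SPX4 the least, with 40.9%. The other 4 pairs lay between 44.5% and 56.5%. Columns with a gap count as different here, and the longer reading frame of SPX4 adds such columns. Over aligned bases alone, SPX1 and SPX2 were again the most alike, with 73.1%, and the other pairs lay between 64.8% and 68.7%, with SPX1 and SPX4 second. None of the 50-base windows of the 4 transcripts (867 to 1317 windows for each gene) occurred a second time in the nuclear genome, so exact matches of this length do not make the genes share reads.

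P1BS has the letters GNATATNC, where N is any base, and reads the same on both strands. It was searched in the RefSeq TAIR10.1 genome from 250 bases before to 50 bases after each gene's annotated start. The sites are shown because PHR1, the factor that SPX proteins restrain, binds this motif. Here 6.13% of 37897 nuclear promoters hold at least 1 match and 0.293% hold at least 2. Of a list of 24 well-known phosphate starvation genes, 13 hold at least 1 and 2 hold at least 2. SPX3 holds 2 matches, SPX1 holds 1, and SPX2 and SPX4 hold none. A wider window of 1000 bases before the start was added after the data had been seen. In it 20.5% of promoters hold a match and 2.92% hold at least 2, and of the 24 listed genes 19 and 12 do. It adds 1 match for SPX1 and 1 for SPX4, and none for SPX2. The sites are written 5′ to 3′ on the plus strand with the motif in capitals. The SPX3 sites and the SPX1 and SPX4 sites before the start lie in no annotated gene, and the site of SPX1 after the start lies in its 5′ UTR. Their positions, in the order printed, are chr5:6801536-6801565, chr5:6802293-6802322, chr2:18606186-18606215, chr2:18606309-18606338 and chr5:4980025-4980054.
SPX1, motif from base -735: tttcctatcaaGAATATTCcatggaatcca
SPX1, motif from base 23: cagagaaaaaaGGATATTCtaattagaaac
SPX3, motif from base -213: tattagagaccGAATATGCcagaggatttg
SPX3, motif from base -90: gctaaagctaaGCATATCCgctttcatatt
SPX4, motif from base -338: atggacatattGTATATGCatataatcaca

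SPX3 was the only member with 2 matches close to its start. The whole stretch of 250 bases before its start (chr2:18606160-18606409, TAIR10.1, plus strand) is given so that both motifs, in capitals, can be seen in place.
SPX3, upstream: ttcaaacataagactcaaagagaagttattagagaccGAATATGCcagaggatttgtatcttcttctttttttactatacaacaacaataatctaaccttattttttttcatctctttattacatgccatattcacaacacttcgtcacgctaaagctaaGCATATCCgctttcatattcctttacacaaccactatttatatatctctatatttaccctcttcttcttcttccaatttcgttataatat
These matches are letters in the sequence. Binding was not measured here, and the absence of a match in the SPX2 windows says only that these letters are not there.

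The labels were checked first. CRR itself had authors' mean levels of 5.99 log2 CPM in Col-0 +Pi and 5.64 in Col-0 -Pi, against -0.38 in crr +Pi and -0.11 in crr -Pi. Its level was thus lower in crr than in Col-0 on both media. All 6 root marker genes on the list were measured, with PYK10, a root beta-glucosidase, at 12.92 to 13.80 log2 CPM. Of 5 green tissue markers 3 were measured. Their summed level was 64.6 CPM in Col-0 +Pi and 69.7 in crr +Pi, against 37.7 in Col-0 -Pi and 30.8 in crr -Pi. The summed level of the root markers was 14482 CPM in Col-0 +Pi and 14042 in crr +Pi, against 9980 in Col-0 -Pi and 8122 in crr -Pi. Both sums were thus lower under -Pi in both genotypes. PYK10, which makes up most of the root sum, had Pi differences of -0.55 on the log2 scale in Col-0 and -0.83 in crr. COBL9 had 0.61 and 0.79, MYB36 0.50 and 0.99, SHR 0.26 and 0.09, CASP1 -0.13 and 0.42, and SCR -0.06 and 0.06. Of the green tissue markers, PSBO1 had the highest level in every group, and its Pi differences were -1.18 and -1.21. RBCS1A had -0.53 and -1.73, and LHCB1.3 had 0.13 and -0.55. The part of these shifts in the SPX values was not tested.

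The first question was how the SPX transcripts differed between the phosphate supplies. SPX1, SPX2 and SPX3 had much higher transcript levels under -Pi than under +Pi in both genotypes, while SPX4 was slightly lower. In Col-0, 3 of 4 members were at least 2-fold higher under -Pi, where 4.19% of all genes were. In crr it was again 3 of 4, where 5.06% of all genes were. At limits of 1.5-fold and 4-fold the count was also 3 of 4 in both genotypes, where 8.46% and 1.5% of all genes passed in Col-0 and 9.81% and 1.7% in crr. SPX2 passed the 4-fold limit narrowly, at 2.02 and 2.01 on the log2 scale. Its difference was just under that limit with 1 CPM added (1.97 in Col-0 and 1.96 in crr) and, in Col-0, after the median over all genes was subtracted. No member was 2-fold lower under -Pi in either genotype, where 2.79% of all genes in Col-0 and 3.62% in crr were. At 1.5-fold, 0 of 4 were lower in Col-0 (7.18% of all genes) and 1 of 4, SPX4, in crr (8.34%). The median difference of the members was 3.86 on the log2 scale in Col-0 and 3.80 in crr, against 0.02 and 0.01 over all genes. In bulk roots, more cells with a transcript and more transcript per cell cannot be told apart.

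SPX1 had an authors' mean level of 3.37 log2 CPM in Col-0 +Pi, 9.08 in Col-0 -Pi, 3.43 in crr +Pi and 9.03 in crr -Pi. Both -Pi means were thus high, and the genotypes lay close to each other on each medium. The difference between -Pi and +Pi was 5.70 on the log2 scale (52.1-fold) in Col-0 and 5.59 (48.3-fold) in crr. Ranked by CPM, which is not corrected for gene length, among 20017 genes, SPX1 stood at place 12758 from the top in Col-0 +Pi and at place 184 in Col-0 -Pi. In crr it stood at place 12514 and at place 193. It thus moved from the lower part of this ranking to near its top. Its Pi difference was number 23 from the highest in Col-0 and number 25 in crr.

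SPX2 had an authors' mean level of 4.42 log2 CPM in Col-0 +Pi, 6.44 in Col-0 -Pi, 4.39 in crr +Pi and 6.40 in crr -Pi. Both -Pi means were again higher, by less than in SPX1 and SPX3. The difference was 2.02 on the log2 scale (4.06-fold) in Col-0 and 2.01 (4.03-fold) in crr. These differences stood at places 296 and 337 from the highest. SPX2, which is the closest relative of SPX1 in coding sequence, thus differed between the media by far less than SPX1.

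SPX3 had an authors' mean level of -1.81 log2 CPM in Col-0 +Pi, 6.66 in Col-0 -Pi, -2.67 in crr +Pi and 6.53 in crr -Pi. Its +Pi means correspond to 0.286 CPM in Col-0 and 0.157 CPM in crr, close to the bottom of the table, and its -Pi means to 101 and 92.4 CPM. The difference was 8.47 on the log2 scale (353-fold) in Col-0 and 9.20 (590-fold) in crr, number 7 and number 3 from the highest of all genes. The size of these folds rests on the very low +Pi means. With 1 CPM added to every mean, the difference was 6.31 in Col-0 and 6.34 in crr.

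SPX4 had an authors' mean level of 3.11 log2 CPM in Col-0 +Pi, 2.93 in Col-0 -Pi, 3.30 in crr +Pi and 2.64 in crr -Pi. Its -Pi mean was below its +Pi mean in both genotypes. The difference was -0.19 on the log2 scale in Col-0 and -0.67 (1.59-fold lower) in crr. Of all genes, 46.3% differed between the media by at least as much in Col-0 and 15.4% in crr. SPX4 stood apart from the other 3 members in having no higher level without phosphate.

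**Figure D1:**
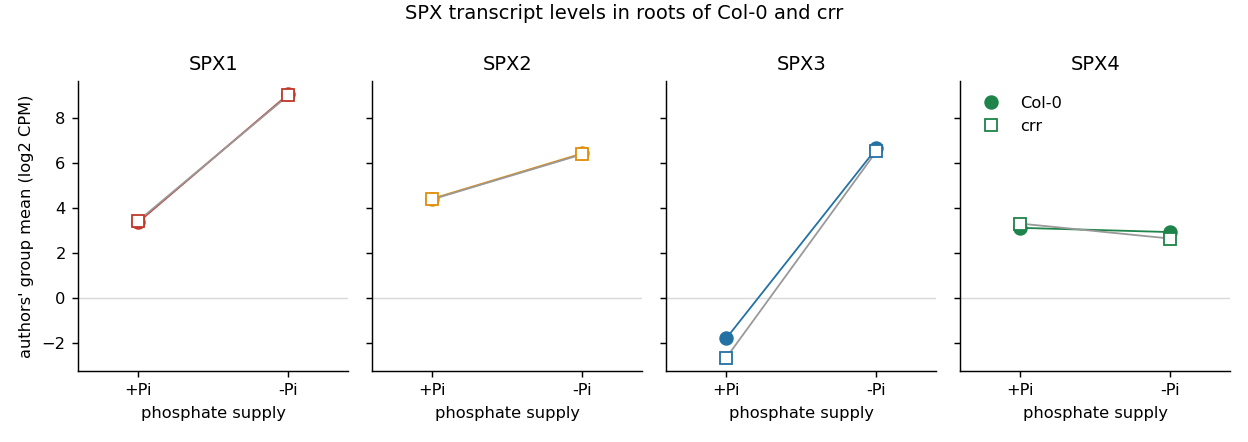
Authors' mean log2 CPM (vertical axis) of SPX1 to SPX4 with phosphate (+Pi) and without (-Pi), filled circles for Col-0 and open squares for crr, with 1 mean per group and no error bars because single libraries were not analysed. The -Pi means of SPX1, SPX2 and SPX3 lie above their +Pi means in both genotypes, and SPX3 starts from -1.81 in Col-0 and -2.67 in crr.

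Set against the whole table, SPX1, SPX2 and SPX3 lay on the same side in both genotypes. SPX3 and SPX1 were among the 25 genes with the highest Pi difference in each genotype. SPX2 lay further in, and SPX4 lay below 0 in both genotypes, further from it in crr than in Col-0.

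**Figure D2:**
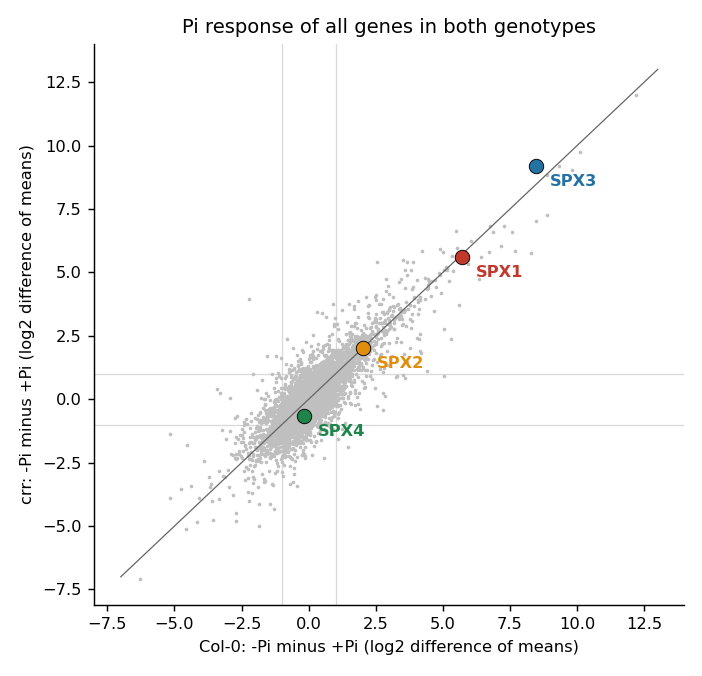
Difference between -Pi and +Pi (log2, authors' means) in Col-0 (horizontal axis) and crr (vertical axis) for 20017 genes in grey, with SPX1 to SPX4 in colour. The diagonal marks equal differences and the light lines mark 2-fold. SPX1 (5.70 and 5.59) and SPX2 (2.02 and 2.01) lie close to the diagonal, SPX3 (8.47 and 9.20) above it and SPX4 (-0.19 and -0.67) below it.

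Levels of different genes were compared per kilobase of annotated exon (1206 bases for SPX1, 1291 for SPX2, 916 for SPX3 and 1366 for SPX4). In Col-0 +Pi the order from the highest level was SPX2 with 16.5 CPM per kb, SPX1 with 8.59, SPX4 with 6.34 and SPX3 with 0.312. In Col-0 -Pi it was SPX1 with 447 CPM per kb, SPX3 with 110, SPX2 with 67.0 and SPX4 with 5.56. The order thus changed with the phosphate supply, and SPX3 moved from the last place to the second. Because the means have no spread, it cannot be said which neighbours in this order differ beyond it.

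The order was the same in crr. In crr +Pi the levels were 16.2 CPM per kb for SPX2, 8.95 for SPX1, 7.23 for SPX4 and 0.171 for SPX3. In crr -Pi they were 433 for SPX1, 101 for SPX3, 65.4 for SPX2 and 4.55 for SPX4. The summed level of all 4 members was 31.8 CPM per kb in Col-0 +Pi and 630 in Col-0 -Pi, a ratio of 19.8, and 32.6 and 603 in crr, a ratio of 18.5. SPX2 made up 52.0% of this sum in Col-0 +Pi and SPX1 made up 71.0% in Col-0 -Pi. SPX4 made up 20.0% of the sum in Col-0 +Pi and 0.882% in Col-0 -Pi, although its own level differed little.

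**Figure D3:**
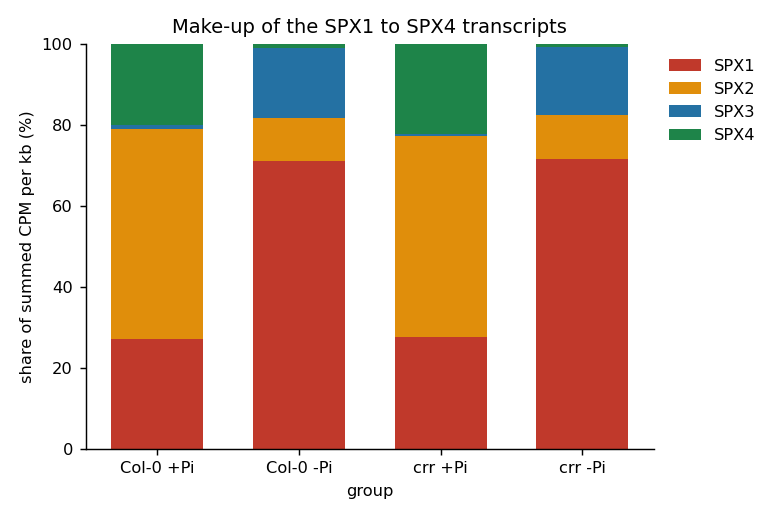
Share (%) of each of the 4 members in their summed level (CPM per kb of exon) in each group, as stacked bars. With phosphate SPX2 takes the largest share (52.0% in Col-0 and 49.8% in crr), and without it SPX1 does (71.0% and 71.7%).

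The second question was whether the crr mutation went with a difference in SPX levels. No member differed 2-fold between crr and Col-0 on either medium (0 of 4). Over all genes 0.954% did so under +Pi and 1.69% under -Pi. The Pi difference itself was also within 2-fold between the genotypes for all 4 members (0 of 4, with 2.99% of all genes beyond). At a limit of 1.5-fold, 1 member, SPX3, was apart under +Pi (3.37% of all genes), 0 under -Pi (5.71%) and 1, again SPX3, in the difference of the Pi responses (8.53%). SPX1 differed between crr and Col-0 by 0.06 on the log2 scale under +Pi and -0.05 under -Pi. SPX2 differed by -0.03 and -0.04. For both genes these values were below the median size over all genes, which was 0.09 under +Pi and 0.11 under -Pi.

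SPX3 had the largest genotype difference of the 4 under +Pi. It was -0.87 on the log2 scale (1.82-fold lower in crr), against -0.13 under -Pi, and its Pi difference was 0.74 larger in crr than in Col-0. Only 1.34% of all genes differed by as much under +Pi. Of the 276 genes with a +Pi level within 1 log2 unit of that of SPX3, however, 37.3% did, and their median size was 0.66. For the difference in Pi response, 55.0% of 433 genes of similar level reached the size seen for SPX3. In this measure the level of a gene is the lower of its +Pi and -Pi means over both genotypes. The comparison with genes of similar level was added after the data had been seen. With 1 CPM added, the values were -0.15 under +Pi and 0.03 for the difference in response, so both shrank where low levels weigh less.

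SPX4 was 0.19 higher on the log2 scale in crr than in Col-0 under +Pi, and its difference under -Pi was -0.29. These opposite signs gave a Pi difference that was -0.48 in crr relative to Col-0. In this measure 2401 genes (12.0% of all), and 10.7% of 5196 genes of similar level, were at least as far apart. The gene was well above the bottom of the table in all groups, at 6.22 to 9.88 CPM.

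**Figure D4:**
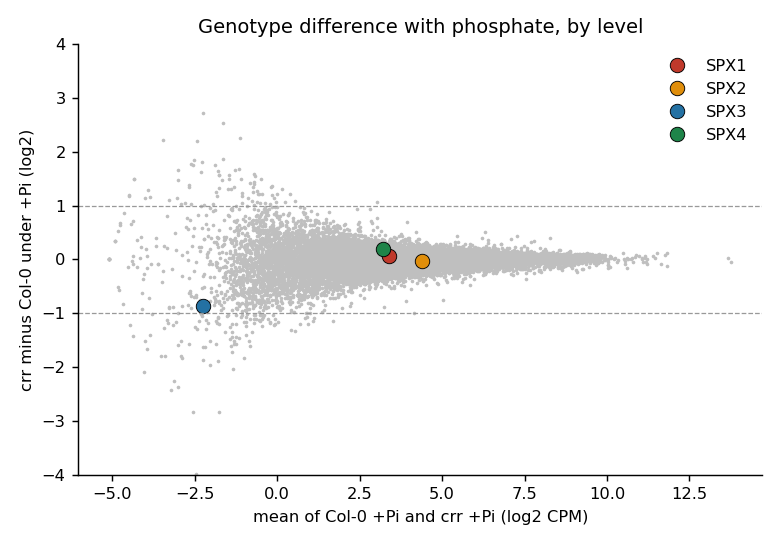
Difference between crr and Col-0 under +Pi (log2, vertical axis) against the mean level under +Pi (log2 CPM, horizontal axis) for all genes in grey and SPX1 to SPX4 in colour; dashed lines mark 2-fold, and 3 genes lie beyond the axis limit of 4. The spread of the grey points widens at low levels, where SPX3 (-0.87) lies, and no member lies beyond the dashed lines.

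Genes next to the members were examined within 5 kb. There were 15 such genes, of which 14 were in the table, and none overlapped a member. AT2G45135, annotated as a RING/U-box protein, begins 970 bases downstream of SPX3 on the same strand. It was listed at the lowest value of the table, -5.09 log2 CPM, in both +Pi groups, and had 4.72 in Col-0 -Pi and 3.93 in crr -Pi. No fold is given for it, because a mean at the lowest value is not a measured level. Like SPX3, it was thus near the bottom with phosphate and higher without it. Its -Pi means were below those of SPX3, which were 6.66 in Col-0 and 6.53 in crr. The gene and SPX3 do not overlap in the annotation. The strand setting of the read counting is not given in the sources used here. Whether reads from SPX3 transcripts reach this gene was not tested.

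HBP5 lies 1304 bases upstream of SPX1 on the opposite strand. It had 2.29 log2 CPM in Col-0 +Pi, 3.70 in Col-0 -Pi, 2.31 in crr +Pi and 3.23 in crr -Pi. Its level was thus higher without phosphate in both genotypes, by 1.41 on the log2 scale in Col-0 and 0.92 in crr. AT2G45120, 1531 bases upstream of SPX3, was higher under -Pi by 0.81 in Col-0 and 1.38 in crr. Its levels were low, at 1.28 log2 CPM in Col-0 +Pi and 2.09 in Col-0 -Pi, and 0.68 and 2.06 in crr. Its differences were not recomputed with 1 CPM added. No other neighbour was 2-fold apart between the media in either genotype. Over all genes, 4.19% were 2-fold higher and 2.79% lower under -Pi in Col-0, and 5.06% and 3.62% in crr. AT5G20160 ends 38 bases downstream of SPX1 on the opposite strand and had Pi differences of -0.22 in Col-0 and -0.14 in crr. AT5G15340 ends 41 bases downstream of SPX4, also on the opposite strand, and had 0.51 and -0.21. TED4, 597 bases downstream of SPX2, had -0.46 and -0.53.

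For each member, the 3 genes with the most similar pattern over the 4 group means were found by Euclidean distance (log2 units) after each gene's own mean was subtracted, among genes with a highest group mean of at least 1 log2 CPM. For SPX1 they were BAM5, a beta-amylase, at a distance of 0.157, AT2G30660 at 0.283 and AT5G09570 at 0.287. The measure takes no account of the level itself. In Col-0 +Pi BAM5 lay at -4.41 log2 CPM, AT2G30660 at -3.92 and AT5G09570 at -3.35, near the lowest value of the table. In Col-0 -Pi they had 1.48, 1.42 and 2.18, so their distances rest on very low +Pi means. For SPX2 they were RHS13, a gene of the root hair specific group, at 0.0816, the vacuolar cation exchanger gene CAX3 at 0.0837 and AT1G17830 at 0.0865. CAX3 had 4.60 log2 CPM in Col-0 +Pi and 6.73 in Col-0 -Pi.

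For SPX3 the nearest were IPS1, a non-coding RNA induced by phosphate starvation, at 0.529, AT5G53048, annotated as another RNA, at 0.883, and its neighbour AT2G45135. The distance of AT2G45135 is not given, because both of its +Pi means are at the lowest value of the table and its place among the 3 rests on them. The +Pi means of AT5G53048 were also very low, at -3.46 log2 CPM in Col-0 and -3.24 in crr. IPS1 had -0.92 log2 CPM in Col-0 +Pi, 7.98 in Col-0 -Pi, -1.04 in crr +Pi and 7.82 in crr -Pi. Its Pi difference was 8.89 in Col-0 and 8.86 in crr, beside 8.47 and 9.20 for SPX3, or 6.31 and 6.34 for SPX3 with 1 CPM added. For SPX4 they were AT5G56590 at 0.0151, the response regulator gene ARR11 at 0.0277 and AT5G13200 at 0.0323. ARR11 had Pi differences of -0.16 in Col-0 and -0.69 in crr, beside -0.19 and -0.67 for SPX4. With only 4 means per gene, such likeness says nothing about shared function or control.

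The SPX domain also occurs in other proteins, among them PHO1, which exports phosphate into the xylem, and the rest of its family. Others are the vacuolar phosphate transporters PHT5;1 and PHT5;2, and the ubiquitin ligase NLA, which marks phosphate transporters for degradation. Of 16 listed genes 13 were measured. None was 2-fold higher under -Pi in either genotype, where 4.19% of all genes in Col-0 and 5.06% in crr were. Under -Pi, 1 was 2-fold lower in both, beside the 2.79% and 3.62% of all genes given above. With 13 genes, neither count sets the list apart from these shares. The lower gene was PHT5;2, with Pi differences of -1.03 on the log2 scale in Col-0 and -1.28 in crr. Its levels were low, at 0.94 log2 CPM in Col-0 +Pi and -0.09 in Col-0 -Pi, and 0.81 and -0.48 in crr. The call rests on these low means, and in Col-0 the difference lies only just past 2-fold. Whether PHT5;2 stays past 2-fold with 1 CPM added, as was tried for SPX3, was not tested. The median Pi difference over the 13 genes was -0.13 in Col-0 and -0.36 in crr.

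PHO1;H1, a relative of PHO1 that also loads phosphate into the xylem, came nearest to 2-fold higher, with 0.93 in Col-0 and 0.81 in crr. PHO1;H10 had 0.77 in both. PHO1, the main exporter, had 8.63 log2 CPM in Col-0 +Pi and 8.50 in Col-0 -Pi, a difference of -0.13, and -0.22 in crr. PHT5;1, which moves phosphate into the vacuole, had 0.47 and 0.64, and NLA had -0.61 and -0.76. None of the 13 differed 2-fold between crr and Col-0 on either medium. Over all genes 0.954% did so under +Pi and 1.69% under -Pi, so this count does not set the 13 genes apart. The Pi differences of SPX1, SPX2 and SPX3 lay above those of all 13 in both genotypes.

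The partners of the SPX proteins were examined next. PHR1, the main target of SPX proteins, had 5.56 log2 CPM in Col-0 +Pi, 5.53 in Col-0 -Pi, 5.60 in crr +Pi and 5.55 in crr -Pi. Its Pi differences were thus -0.03 in Col-0 and -0.05 in crr. None of the 5 PHR1 family genes on the list (PHR1 and PHL1 to PHL4) was 2-fold apart between media. Over all genes, 4.19% were 2-fold higher and 2.79% lower under -Pi in Col-0, and 5.06% and 3.62% in crr. With 5 genes, a count of 0 does not set the list apart from these shares. The Pi differences of the 5 genes ran from -0.17 to 0.13 in Col-0 and from -0.15 to 0.48 in crr.

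Of 9 listed kinases that make inositol phosphates and inositol pyrophosphates, the molecules bound by SPX domains, 1 was at least 2-fold higher under -Pi in both genotypes, where 4.19% of all genes in Col-0 and 5.06% in crr were. A single gene of 9 is too few to set the list apart from that share. ITPK2, an inositol phosphate kinase, had 2.72 log2 CPM in Col-0 +Pi, 4.85 in Col-0 -Pi, 3.04 in crr +Pi and 4.71 in crr -Pi. Its Pi difference was 2.13 in Col-0 and 1.67 in crr. VIH1 and VIH2, which make the inositol pyrophosphate with the highest phosphate content, had 0.17 and 0.13 in Col-0 and 0.08 and -0.03 in crr. ITPK1, which acts before them, had -0.05 and -0.08.

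**Figure D5:**
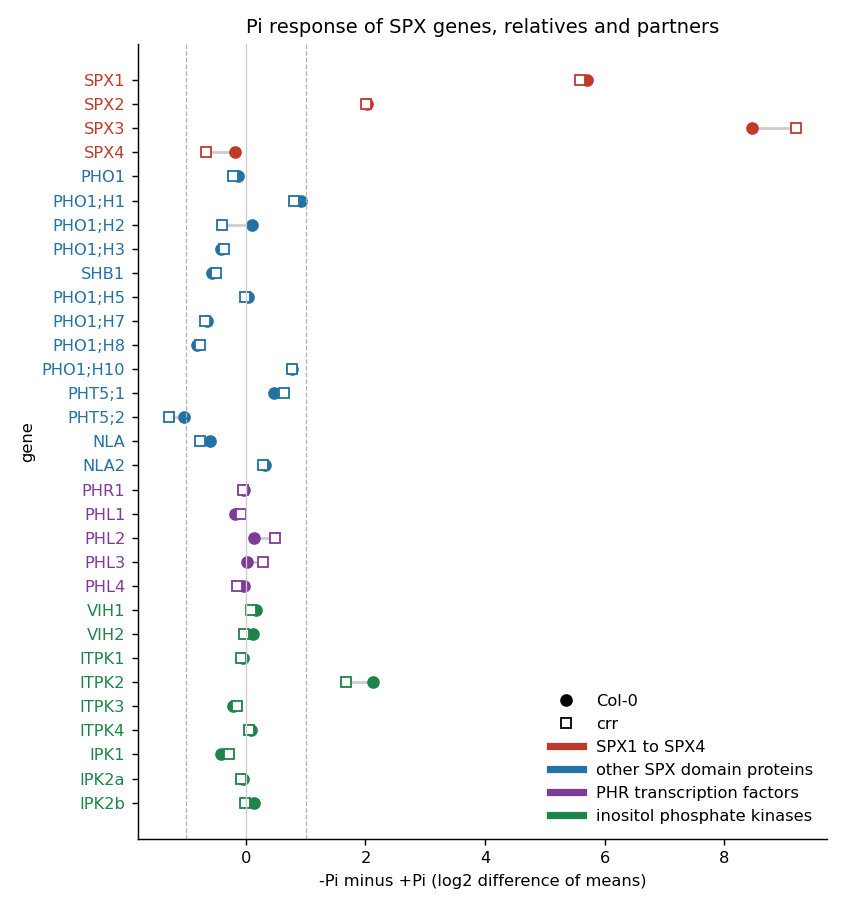
Difference between -Pi and +Pi (log2, authors' means, horizontal axis) of SPX1 to SPX4, of 13 other SPX domain genes, 5 PHR genes and 9 inositol phosphate kinase genes, filled circles for Col-0 and open squares for crr, joined by a line; dashed lines mark 2-fold. SPX1, SPX2, SPX3 and ITPK2 (2.13 and 1.67) lie to the right of the 2-fold line, PHT5;2 (-1.03 and -1.28) to the left, and the rest between.

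Genes listed for their known induction by phosphate starvation were also higher without phosphate. Because they were chosen for this, with earlier results of these data known, their count is a description and no test. Control by PHR1 was not measured. Of 24 listed phosphate starvation genes, 23 were at least 2-fold higher in Col-0 and 21 in crr, with medians of 3.77 and 3.66 on the log2 scale. Over all genes, 4.19% in Col-0 and 5.06% in crr were. The Col-0 count includes PHT1;3 and PHT1;7, phosphate transporter genes listed at the lowest value of the table in Col-0 +Pi, for which no fold is given. The crr count does not include PHT1;3, PHT1;1 and PAP10. SPX1 and SPX3 were above these medians in both genotypes, and SPX2 was below them. PECP1, a phosphatase gene, had the largest difference on the list, 12.20 in Col-0 and 12.01 in crr from +Pi means of -4.18 and -4.15 log2 CPM, beside 8.47 and 9.20 for SPX3.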

How the data were processed

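Roots of Col-0 and crr seedlings grown with or without phosphate were sequenced in 12 libraries, 3 per group. Per the study's methods and the notes of the submitters, reads were trimmed with cutadapt 1.8, aligned to TAIR10 with STAR 2.5.3a and counted with HTSeq 0.9.1. RSEM 1.2.31 is also named in the notes. Genes reaching 1 CPM in 1 or more samples were retained by the authors, who scaled libraries by TMM in edgeR 3.24.3. The deposited values are log2 CPM, averaged by the authors over each group, and the prior count behind the log2 was not found in the sources used. The lowest value is -5.09, held by 30 genes in at least 1 group. The other tables hold the authors' own comparisons (fold changes, p-values and F statistics) and were not used. Library depths were not used, so no interval is given. RNA extraction was by a column kit per the labels and by Trizol per the study's methods.

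Differences of group means were computed in Python 3.11.15 with pandas 2.3.3. The code was run on simulated data with a large added shift and little noise. That run checks the calculation only and does not show how reliable calls are in the real data. A gene was called at 2-fold. CPM is 2 to the power of the deposited mean, which is a geometric mean over libraries. Coordinates were compared with RefSeq TAIR10.1, where 18158 of 18161 genes had the same start and end. Coding sequences were aligned with Biopython 1.88, because no protein table was used. Named genes are the 4 members, the 3 nearest in pattern to each, genes within 5 kb, and members of lists. Of the listed genes, those that carry a comparison are named. The members and lists were chosen with earlier results of these data known.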

Additional observations from a re-analysis of the deposited data

How the results depend on the processing

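The counts of members past 2-fold were recomputed with limits of 1.5-fold and 4-fold, after subtracting the median over all genes, and with 1 CPM added. With the 1.5-fold limit, 1 member instead of 0 was apart between crr and Col-0 under +Pi, and 1 instead of 0 in the difference of the Pi responses. Both times this was SPX3, the member with the lowest +Pi level. The counts for the Pi differences remained 3 of 4 in both genotypes under both other limits, the median subtraction and the added CPM, each tried alone. Within each of the 4 groups, the order of the members by level stayed as it was when no length correction was made. The longest transcript as length also left it unchanged. For every member that length equals the exon length already used, so this setting was no separate check. The 3 nearest genes were the same without the level filter, but when each pattern was also divided by its SD, 0 of the 3 were shared for every member. No paired analysis was possible because the table gives only 1 mean per group. For the same reason, leaving out each replicate could not be run, and a single library that decides a mean would not be seen. The prior count and the depth behind low means, as in SPX3 under +Pi, were not known here, so folds from them are approximate.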
